A study of Mus musculus with 16 samples.

Results

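The genes described here encode 8 proteins of vasopressin, endothelin and angiotensin signaling: the endothelin precursor EDN1, the receptors AVPR1A, EDNRA, EDNRB and AGTR1A, and the regulators RGS2, RGS4 and RGS5. All 8 were found by their symbols among the 18132 genes measured. They were selected on the arrays described here, for their levels and for lower values after exposure to tumor cell medium in both genotypes, so the differences between treated and untreated cells are given for these genes as a description, with no test. Gene expression was measured in primary fibroblasts grown from the inguinal mammary glands of female 129S6 mice that were 8 to 10 weeks old. The mice were MEKK1+/+ or MEKK1-/-; MEKK1 is a kinase encoded by MAP3K1. Cells of each genotype were either kept in growth medium, here called untreated, or exposed for 8 h to conditioned medium, that is, growth medium harvested from cultures of MDA-MB-231, a line of human breast tumor cells. There were 16 Illumina Mouse 8 arrays, 4 in each of the 4 groups (MEKK1+/+ untreated, MEKK1+/+ treated, MEKK1-/- untreated, MEKK1-/- treated). The methods give fewer mice per genotype than there are cultures in a group and do not tie a culture to a mouse, so p values measure only the spread between cultures, which may be technical. All cultures were grown in DMEM with serum, and the sources used here do not describe the MEKK1-/- allele.

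Vasopressin, endothelin-1 and angiotensin II are small peptides best known for contracting smooth muscle around blood vessels. Their receptors AVPR1A, EDNRA and AGTR1A couple mainly to G proteins of the Gq family, which activate phospholipase C, release calcium from internal stores and turn on protein kinase C. EDNRA prefers endothelin-1, whereas EDNRB binds all endothelins alike and also removes the peptide from its surroundings. RGS proteins end the signal by speeding the hydrolysis of GTP on the G protein. Fibroblasts and myofibroblasts can carry these receptors, and endothelin and angiotensin are known to promote contraction and matrix production in such cells.

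The DNA upstream of the start of the members that differed most between untreated and treated cells is shown first, because AVPR1A and EDN1 were lower with conditioned medium while EDNRA was higher. RefSeq promoter sequences of mouse build GRCm38.p6 were matched by symbol for 7 of the 8 genes, not for AGTR1A. The 250 bases before each start are printed 5′ to 3′ on the strand of the gene, from chr10:122448249-122448498 (plus strand) for AVPR1A, chr13:42301226-42301475 (plus strand) for EDN1 and chr8:77724453-77724702 (minus strand) for EDNRA, with capitals marking motif matches.
AVPR1A: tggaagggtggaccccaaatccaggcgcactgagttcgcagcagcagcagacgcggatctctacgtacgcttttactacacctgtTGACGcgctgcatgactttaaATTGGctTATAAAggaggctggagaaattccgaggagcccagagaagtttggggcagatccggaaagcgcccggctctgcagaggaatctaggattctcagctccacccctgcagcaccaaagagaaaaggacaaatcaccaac
EDN1: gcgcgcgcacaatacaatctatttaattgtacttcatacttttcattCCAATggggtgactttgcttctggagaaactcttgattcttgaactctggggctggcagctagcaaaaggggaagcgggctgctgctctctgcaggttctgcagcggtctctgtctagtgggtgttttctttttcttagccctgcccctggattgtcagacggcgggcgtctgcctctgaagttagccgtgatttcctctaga
EDNRA: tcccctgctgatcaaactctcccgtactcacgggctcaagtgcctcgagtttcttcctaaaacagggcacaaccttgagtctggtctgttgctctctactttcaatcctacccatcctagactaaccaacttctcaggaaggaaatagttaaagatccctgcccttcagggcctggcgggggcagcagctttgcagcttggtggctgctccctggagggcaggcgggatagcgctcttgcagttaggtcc
The motifs were searched on both strands over 300 bases, from 250 before the start to 50 from it on, and they were the TATA box TATAAA, the core of a CRE with the letters TGACG, the AP-1 site TGANTCA, the GATA site AGATAA, the box with the letters CCAAT and an NF-kB site. In AVPR1A the capitals are a TGACG at -165, a CCAAT box on the other strand at -144 and, next to it, a TATAAA at -137, where positions give the first base counted from the start of the gene. The EDN1 stretch holds a CCAAT box at -203, and an AGATAA lay on the other strand at 9, past the printed stretch. The EDNRA window held none of the motifs. Of the other members, EDNRB, RGS2 and RGS4 held a TGACG and a CCAAT box, RGS4 also a TATAAA at -31, and RGS5 a CCAAT box and an AGATAA. Among all 32851 promoters in the table, 13.6% held a TATAAA, 20.8% a TGACG, 7.81% a TGANTCA, 11.2% an AGATAA, 37.4% a CCAAT box and 1.63% an NF-kB site. The matches in the printed stretches did not overlap, and they describe letters only.

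The values below are log2 intensities after quantile normalization, which gives all arrays the same distribution. The 99th percentile of 1075 olfactory receptor genes served on each array as the level without signal and ran from 7.2 to 7.34; 6923 genes were above it on every array while 8251 were above it on none. The median intensity of an array as deposited ran from 113.8 to 170.1. In these values the median gene was lower by 0.284 (log2) with conditioned medium than without in MEKK1+/+ cells, a shift that the normalization removes. MAP3K1, the targeted gene, did not have lower signal on arrays labelled MEKK1-/-: its mean was 8.24 ± 0.15 (SD, n = 4) there against 7.71 ± 0.19 (n = 4) in untreated MEKK1+/+ cells (limma adjusted p = 0.465, 2-sided exact permutation p = 0.0286) and 8.07 ± 0.21 against 7.74 ± 0.32 with conditioned medium (adjusted p = 0.605, exact p = 0.143). The position of the probe in MAP3K1 was not analysed here, so genotype means the one on the label throughout. Both MEKK1-/- cultures numbered 1 stood apart in epithelial and endothelial markers, with a summed epithelial intensity of 9284 (untreated) and 7745 (treated). The other arrays had 643 to 1079. MEKK1-/- cultures numbered 3 and 4 (1079 and 1054 untreated, 843 and 890 treated) also lay above every MEKK1+/+ array, at 647 to 716. Differences without the cultures numbered 1 are given below where they matter, and leave those smaller epithelial differences in place.

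AVPR1A, the V1a receptor for vasopressin, was lower with conditioned medium in both genotypes. In untreated MEKK1+/+ cells it measured 11.29, 11.38, 11.49 and 10.97 in replicates 1 to 4, and with conditioned medium 8.89, 9.68, 9.71 and 9.12. In untreated MEKK1-/- cells it measured 9.87, 11.40, 10.92 and 11.12, and with conditioned medium 8.11, 9.23, 8.68 and 8.66. Every treated culture lay below every untreated culture of its genotype. The log2 difference was -1.93 (standard error 0.30) in MEKK1+/+ cells, or 3.82-fold, and -2.16 (standard error 0.30) in MEKK1-/- cells, or 4.47-fold, which ranked 1 among the falls of all 18132 genes in each. The lowest culture of both MEKK1-/- groups was the one numbered 1, which carried the epithelial signal. Without both cultures the difference in MEKK1-/- cells was -2.3. In such bulk samples fewer cells of a type and less RNA per cell cannot be told apart.

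EDN1, whose product is cut to the peptide endothelin-1, was the other gene that was clearly lower with conditioned medium. It measured 9.06, 8.80, 9.52 and 8.45 in untreated MEKK1+/+ cells and 7.50, 7.54, 7.25 and 7.72 with conditioned medium. In MEKK1-/- cells the values were 9.75, 9.36, 9.01 and 9.07 without and 7.95, 7.0, 7.56 and 7.34 with conditioned medium. The groups did not overlap within either genotype, and with conditioned medium the gene came down close to the level without signal, which 4 of 4 MEKK1+/+ arrays and 3 of 4 MEKK1-/- arrays passed. The log2 difference was -1.46 (standard error 0.23), or 2.74-fold, in MEKK1+/+ cells and -1.84 (standard error 0.23), or 3.57-fold, in MEKK1-/- cells, and ranked 2 among the falls in each. With replicate 2 of the treated MEKK1-/- cells, the array not above that level, set to it, the latter was 3.37-fold.

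The endothelin receptors did not share the direction of their ligand. EDNRA, the receptor that prefers endothelin-1, was higher with conditioned medium. Its values were 8.43, 9.40, 8.91 and 9.05 in untreated MEKK1+/+ cells and 9.51, 9.69, 9.66 and 9.54 with conditioned medium. In MEKK1-/- cells they were 8.79, 8.80, 9.48 and 9.30 without and 9.89, 9.75, 10.03 and 9.94 with conditioned medium. All treated cultures lay above all untreated cultures of their genotype, and the treated cultures were close to each other (SD 0.09 and 0.12) where the untreated ones were spread (SD 0.40 and 0.35). The log2 difference was 0.65 (standard error 0.18), or 1.57-fold, in MEKK1+/+ cells and 0.81 (standard error 0.18), or 1.75-fold, in MEKK1-/- cells. These values go against the lower level for which the gene was listed. With the values as deposited the difference in MEKK1+/+ cells was smaller, 0.27, and still above 0. EDNRB was above the level without signal on 1 of 16 arrays, the treated MEKK1-/- culture numbered 1, at 7.49, and its group means ran from 6.96 to 7.10.

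AGTR1A, the type 1a receptor for angiotensin II, was lower on average with conditioned medium, and the groups overlapped. It measured 10.13, 9.25, 9.93 and 9.96 in untreated MEKK1+/+ cells and 8.97, 9.05, 9.72 and 9.45 with conditioned medium. In MEKK1-/- cells it measured 8.96, 10.12, 9.40 and 9.67 without and 8.49, 8.72, 9.24 and 8.62 with conditioned medium. The log2 difference was -0.52 (standard error 0.25), or 1.44-fold, and -0.77 (standard error 0.25), or 1.71-fold. By culture number, taken as pairs in MEKK1-/- cells only, the change there was -0.48, -1.40, -0.15 and -1.05. The same-numbered MEKK1+/+ cultures, whose pairing is uncertain, differed by -1.16, -0.20, -0.21 and -0.51. With the values as deposited the difference in MEKK1+/+ cells was -0.95.

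Of the regulators, RGS4, which acts on Gq and Gi proteins, was the only member of the 3 with signal. Its values were 10.24, 9.44, 9.55 and 9.03 in untreated MEKK1+/+ cells and 9.91, 8.75, 8.97 and 9.03 with conditioned medium. In MEKK1-/- cells they were 9.94, 9.54, 10.37 and 10.37 without and 9.76, 8.60, 9.44 and 9.40 with conditioned medium. The groups overlapped in both genotypes, and the log2 difference was -0.40 (standard error 0.31), or 1.32-fold, and -0.76 (standard error 0.31), or 1.69-fold. The difference in MEKK1+/+ cells was -0.18 without untreated replicate 1, -0.26 without treated replicate 2, -0.65 without treated replicate 1 and -0.83 with the values as deposited. In MEKK1-/- cells the change by culture number was -0.19 for the culture numbered 1 and -0.93, -0.94 and -0.97 for the others. The same-numbered MEKK1+/+ cultures differed by -0.32, -0.70, -0.59 and -0.0. RGS2, a regulator that prefers Gq, and RGS5, a regulator known from pericytes and vascular smooth muscle, were above the level without signal on 0 of 16 arrays. RGS2 ran from 6.70 to 7.09 and RGS5 from 6.57 to 7.02 over all cultures, so no fold is given for them or for EDNRB.

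**Figure D1:**
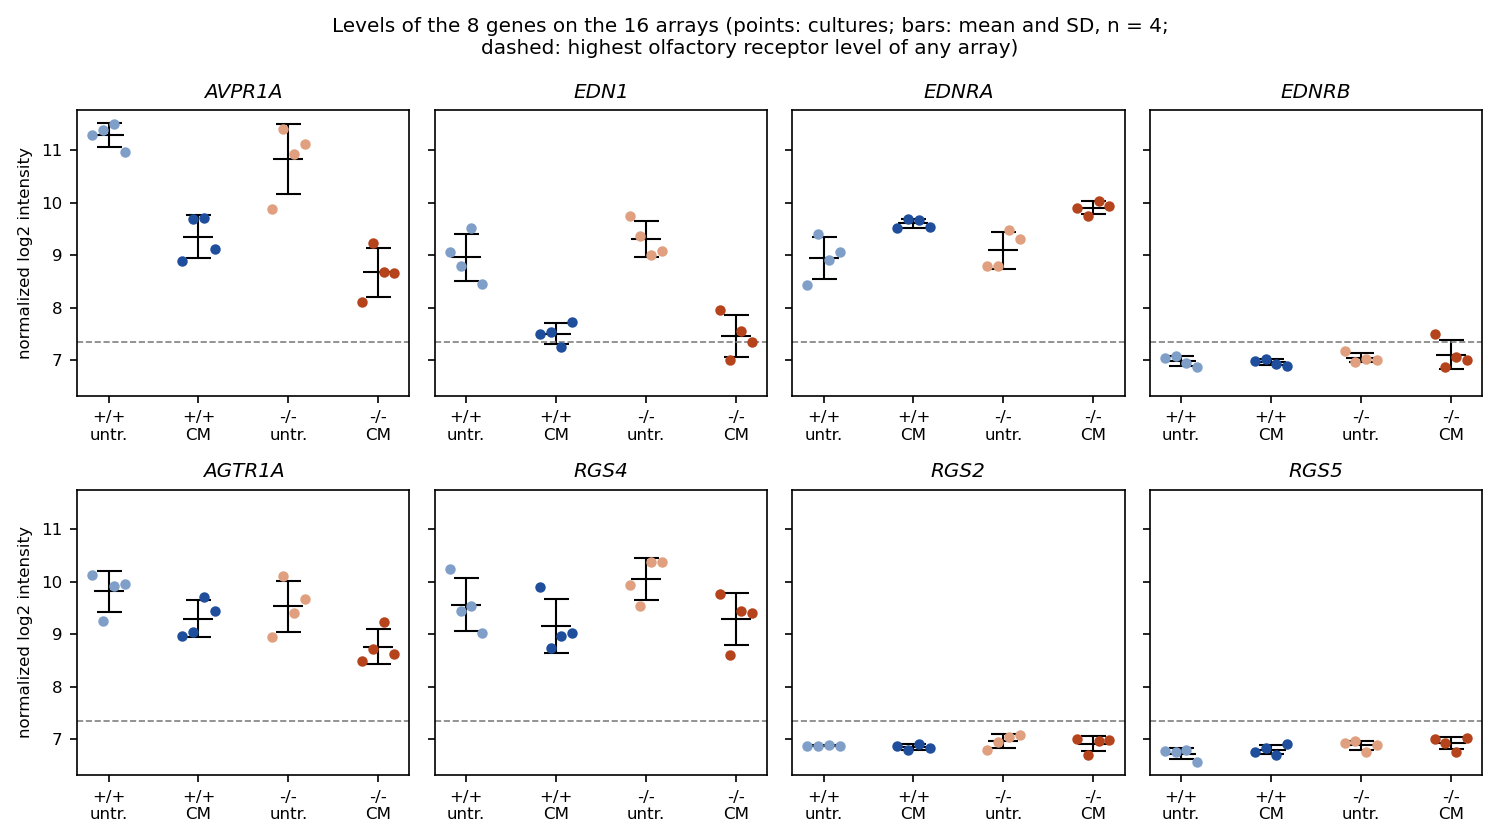
Normalized log2 intensity (vertical axis, a log scale) of the 8 genes in the 4 groups (+/+ and -/- for the genotype, untr. for untreated, CM for conditioned medium); points are single cultures, bars give the mean and SD of 4, and the dashed line is the highest level without signal, 7.34. AVPR1A and EDN1 are lower and EDNRA is higher with conditioned medium in both genotypes, with no overlap, while EDNRB, RGS2 and RGS5 sit at or below the line apart from 1 EDNRB array at 7.49.

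In all, 6 of the 8 genes were lower and 2 higher with conditioned medium in MEKK1+/+ cells, and 5 were lower and 3 higher in MEKK1-/- cells, with 5 lower in both. These counts include EDNRB, RGS2 and RGS5, which were above the level without signal on 1, 0 and 0 of 16 arrays. RGS2 was 1 of the 5 lower in both. Of the 8 genes, 2 lay lower and 1 higher with no overlap in each genotype. Among all genes, 5.02% lay lower and 4.68% higher with no overlap in MEKK1+/+ cells, and 5.53% lower and 4.9% higher in MEKK1-/- cells. As the treated and untreated cells served to choose the members, nothing is read from these shares. Over the 8 genes the log2 difference had a median of -0.21 in MEKK1+/+ and -0.41 in MEKK1-/- cells, and over all genes of -0.002 and -0.004. Ordered by group mean, AVPR1A and EDN1 had both untreated groups above both treated groups and EDNRA the reverse. Neighbors in that order that did not differ by more than the larger SD were the untreated groups for all 3 genes and the treated groups for EDN1. For RGS4 no neighboring groups differed by more than the larger SD, and for AGTR1A only the treated groups did.

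**Figure D2:**
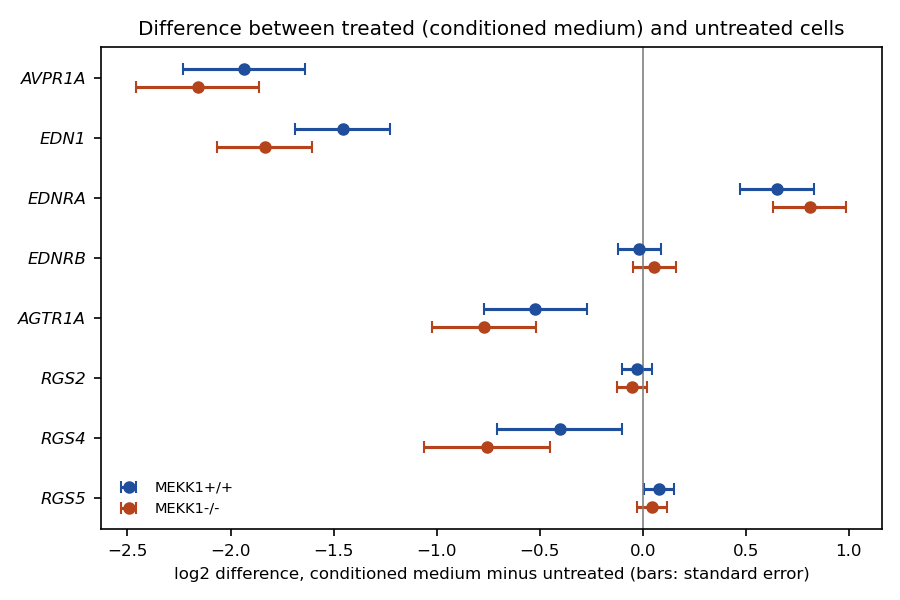
Log2 difference between cells with conditioned medium and untreated cells (horizontal axis) for each gene in MEKK1+/+ (blue) and MEKK1-/- cells (dark orange); bars are the standard error. AVPR1A lies near -2 and EDN1 between -1.46 and -1.84, EDNRA lies between 0.65 and 0.81, and EDNRB, RGS2 and RGS5 lie within 0.08 of 0.

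The levels of the genotypes were compared within untreated and within treated cells, a contrast that the choice of members did not use. In untreated cells, 0 of the 8 genes passed an adjusted p of 0.05 from limma, and 1, RGS5, had a p under 0.05 before adjustment. With conditioned medium the counts were 0 and 1 (AVPR1A). Among all genes tested, 0.0% passed in untreated cells and 0.00552% with conditioned medium, where 1680 and 1466 genes had an unadjusted p under 0.05. The methods' own test, on z-scores, called 1 of the 8 in untreated cells, RGS5, a gene below the level without signal, and 0 with conditioned medium.

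AVPR1A was lower by 0.46 in untreated MEKK1-/- cells on the log2 scale (95% interval of the difference -1.09 to 0.18, limma adjusted p = 0.643, exact permutation p = 0.257). With conditioned medium the difference was -0.68 (interval -1.31 to -0.05, adjusted p = 0.598, exact p = 0.0857), and 3 of 4 MEKK1-/- cultures lay below all MEKK1+/+ cultures. Without both MEKK1-/- cultures numbered 1 these differences were -0.14 and -0.50. AGTR1A moved alike, by -0.28 (interval -0.81 to 0.26, adjusted p = 0.749, exact p = 0.371) in untreated cells and -0.53 (interval -1.06 to 0.01, adjusted p = 0.62, exact p = 0.0857) with conditioned medium. Neither gene passed the threshold. Without those cultures the AGTR1A differences were -0.09 and -0.44. In untreated cells AGTR1A differed by -0.47 without replicate 2 of either genotype and by -0.18 without MEKK1+/+ replicate 1. With arrays scaled to the same median the differences in untreated cells were larger, -0.75 for AVPR1A and -0.54 for AGTR1A, and as deposited they were -0.73 and -0.52.

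EDNRA with conditioned medium was the only member whose genotypes did not overlap. Its 4 MEKK1-/- cultures lay above all 4 MEKK1+/+ cultures, by 0.30 (interval -0.08 to 0.68). The exact permutation p was 0.0286, the smallest that 4 arrays against 4 allow, and the limma adjusted p over all genes was 0.669. Of all genes, 4.17% showed no overlap in this comparison and 4.61% in untreated cells, where 0 of the 8 members did. When the arrays were scaled to the same median the difference was 0.09. EDN1 differed by 0.34 (interval -0.15 to 0.83, adjusted p = 0.657, exact permutation p = 0.257) in untreated cells and by -0.04 (interval -0.53 to 0.45, adjusted p = 0.974, exact p = 0.914) with conditioned medium, while for RGS4 the differences were 0.49 (interval -0.16 to 1.14, adjusted p = 0.63, exact p = 0.171) and 0.14 (interval -0.52 to 0.79, adjusted p = 0.923, exact p = 0.686). In untreated cells EDN1 differed by 0.12 as deposited, 0.10 with arrays scaled to the same median, 0.075 with array weights, 0.17 without MEKK1+/+ replicate 4, 0.19 without MEKK1-/- replicate 1 and 0.53 without MEKK1+/+ replicate 3. RGS4 differed there by 0.24 as deposited, 0.22 with scaling and 0.31 without MEKK1+/+ replicate 4. The intervals reach 0.83 for EDN1 and 1.14 for RGS4, so equal levels are not shown.

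The responses of the genotypes to conditioned medium are set side by side without a test, since both served to choose the members. The MEKK1-/- response less the MEKK1+/+ response was -0.23 (standard error 0.42) for AVPR1A, -0.38 (0.325) for EDN1 and 0.16 (0.253) for EDNRA. It was -0.25 (standard error 0.355) for AGTR1A and -0.36 (0.432) for RGS4. The sign of AVPR1A, EDN1, AGTR1A and RGS4 turned with the values as deposited, where the median gene itself is shifted by 0.285.

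**Figure D3:**
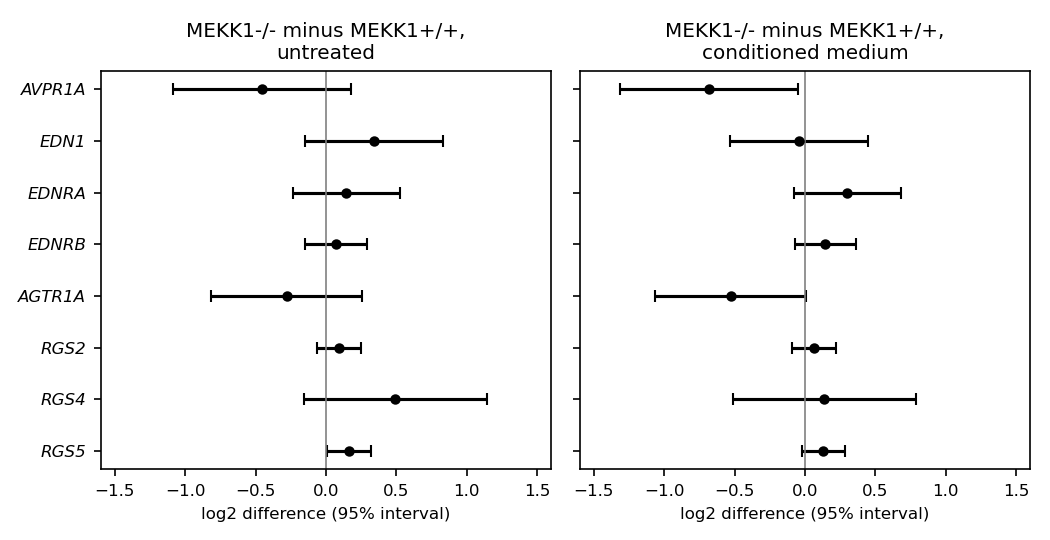
Log2 difference between genotypes (MEKK1-/- minus MEKK1+/+, horizontal axis) for each gene in untreated cells (left) and with conditioned medium (right); points are the limma estimates and bars the 95% intervals. The intervals that leave out 0 are those of RGS5 in untreated cells and AVPR1A with conditioned medium, neither of which passed after adjustment.

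Markers of other cell types were measured beside these genes. Fibroblast markers were strong, with 7 of 8 above the level without signal on all arrays; LUM (lumican) was above it on 12. PDGFRA, a receptor of mesenchymal cells, rose with conditioned medium by 0.95 in MEKK1+/+ and 1.00 in MEKK1-/- cells (limma adjusted p = 0.0256 and 0.0204). Of 11 smooth muscle and pericyte markers, 6 were above the level on all arrays, ACTA2 the highest, and CNN1 and ABCC9 on none. Their summed intensity ran from 31336 to 35485 in untreated MEKK1+/+ cells and from 27215 to 31256 with conditioned medium, and from 28724 to 38231 and 25644 to 31677 in MEKK1-/- cells. The sum was thus lower with conditioned medium, but its linear scale lets ACTA2 (mean 14.68 in untreated MEKK1+/+ cells) set most of it. ACTA2 differed by -0.21 in each genotype (limma adjusted p = 0.265 and 0.266). In MEKK1+/+ cells TAGLN (-0.20) and PDGFRB (-0.33) were also lower, and the markers other than these and NOTCH3 differed by 0.03 or less. In MEKK1-/- cells TAGLN (-0.21), PDGFRB (-0.32), MYH11 (-0.33) and KCNJ8 (-0.14) were lower, and the markers other than these, ACTA2 and NOTCH3 differed by 0.08 or less. Only NOTCH3 passed the test among the 11, and it rose (0.85, limma adjusted p = 0.0195, in MEKK1+/+ cells, beside 0.70, adjusted p = 0.0527, in MEKK1-/- cells). The part of such cells in the difference of AVPR1A and EDN1 was not tested.

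Of the endothelial markers, 0 of 8 were above the level on all arrays and KDR and TIE1 on none; their summed intensity was 1042 to 1222 on MEKK1+/+ arrays and 1206 to 1339 on MEKK1-/- arrays, apart from both cultures numbered 1 with 1931 (untreated) and 1848 (treated). The treated one was also the array with EDNRB signal. Macrophage markers differed between genotypes in the median of their summed intensity, at 19631 in untreated MEKK1+/+ and 5476 in untreated MEKK1-/- cells, with ranges of 6679 to 29554 and 2769 to 19508. With conditioned medium the medians were 19645 and 6283. Of the 7 macrophage markers 3 were above the level on all arrays, LYZ2 the highest, ITGAM and PTPRC on none, and none passed a test between genotypes. The part of macrophages in the differences between genotypes was not tested. Epithelial markers on the 2 arrays that stood apart were led by keratins, while KRT5 was above the level on no array. Over all arrays, KRT8 was above it on 15, KRT14 on 6, KRT18 on 5 and CDH1 on 3. The part of epithelial cells in the differences between genotypes was not tested. For fat cells 0 of 5 markers were above the level on any array. For lymphocytes CD3E was on 10 arrays and the other 3 markers on none.

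The other genes of these pathways came from 9 lists with 109 genes, of which 101 were measured, 32 were above the level without signal on all arrays and 51 on none. With conditioned medium, 5 of the 101 rose and 3 fell in MEKK1+/+ cells, and 2 rose and 1 fell in MEKK1-/- cells (limma adjusted p under 0.05). With the replicate block within genotype, which takes same-numbered arrays as pairs, 4 rose and 3 fell in MEKK1-/- cells. Of all genes tested, 2.27% rose and 2.75% fell in MEKK1+/+ cells and 2.18% and 2.51% in MEKK1-/- cells, and the counts in the lists lie within a few genes of these shares. The median difference of the 101 was -0.02 in both genotypes. None of the 101 passed between genotypes or for the difference of the responses, for which 0.0% of all genes passed (473 before adjustment).

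The partners of the members in their own systems were mostly without signal or did not pass. Of the vasopressin and oxytocin list (the hormones AVP and OXT and other receptors), 0 of 5 genes were above the level on any array. Of the endothelin list, the converting enzymes ECE1 and ECE2, which release endothelin from its precursor, were above it on all arrays. ECE1 differed by 0.10 and -0.16 with conditioned medium in MEKK1+/+ and MEKK1-/- cells (limma adjusted p = 0.779 and 0.601) and ECE2 by -0.05 and -0.09 (adjusted p = 0.883 and 0.758); the other endothelins EDN2 and EDN3 and the peptidase MME had no signal. In the renin-angiotensin list, AGTRAP, which binds the type 1 receptor, and ATP6AP2, the prorenin receptor, were above the level on all arrays, AGT, the precursor of angiotensin, on 7, REN1 on 2 and the other 6 on none, and 0 of 10 passed. The converting enzymes thus did not show the difference seen for EDN1.

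Downstream of the receptors, 3 of 21 genes of Gq and G12/13 transduction rose in MEKK1+/+ cells and 1 of them in MEKK1-/- cells. PRKCD, a protein kinase C, rose from 10.50 ± 0.12 to 11.18 ± 0.19 (SD, n = 4) in MEKK1+/+ cells and from 10.29 ± 0.06 to 10.83 ± 0.19 in MEKK1-/- cells. Its difference was 0.68 (limma adjusted p = 0.00169) and 0.54 (adjusted p = 0.00693), and the call held with any 1 array left out. It was lost with the values as deposited in both genotypes, and with arrays scaled to the same median in MEKK1-/- cells. ITPR2, a calcium release channel, rose by 0.50 (adjusted p = 0.0217) and PLCB3, a phospholipase C, by 0.36 (adjusted p = 0.0238) in MEKK1+/+ cells, beside 0.35 (adjusted p = 0.11) and 0.21 (adjusted p = 0.204) in MEKK1-/- cells. Both calls were also lost as deposited, with arrays scaled to the same median and with only the groups compared, ITPR2 with z-scores (adjusted p = 0.0658 by limma) and PLCB3 with trend and robust eBayes or the replicate block within genotype (adjusted p = 0.08 and 0.0507). Each lost its call without any 1 of several MEKK1+/+ arrays, at an adjusted p of up to 0.0564 for ITPR2 (untreated 1, 2 or 3, treated 4) and 0.0679 for PLCB3 (untreated 1 or 3, treated 1). As deposited, PLCB3 turned to -0.06. The alpha subunits GNAQ and GNA11 themselves were above the level on all arrays and did not pass.

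In the other lists, RGS12 was the only one of 15 further RGS genes to pass, and it fell by 0.54 in MEKK1+/+ cells (limma adjusted p = 0.0261), beside -0.35 (adjusted p = 0.159) in MEKK1-/- cells; without any 1 of 6 MEKK1+/+ arrays (untreated 1, 3 or 4, treated 1, 2 or 3) its adjusted p ran up to 0.0735, and with only the groups compared it was 0.0766. With the replicate block within genotype RGS12 passed in MEKK1-/- cells (adjusted p = 0.0292). Among 22 other Gq-coupled vasoactive receptors, F2R, the thrombin receptor, fell by 0.68 (adjusted p = 0.025), beside -0.57 (adjusted p = 0.0637); the call was lost without any 1 of 5 MEKK1+/+ arrays (untreated 1, 2 or 3, treated 2 or 4), at up to 0.0762, and with the values as deposited (0.0569) or scaled to the same median (0.0639). In MEKK1-/- cells F2R passed with z-scores (adjusted p = 0.00716 by limma, 0.00229 by the methods' test). It also passed there with only genes above the median level (0.039), trend and robust eBayes (0.0444) or array weights (0.0309). Of the 6 genes of receptor desensitisation none passed.

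Of 10 genes of natriuretic peptide and nitric oxide relaxation, which oppose the contractile peptides, NPR3, the clearance receptor for natriuretic peptides, fell by 1.20 in each genotype (limma adjusted p = 0.0151 in MEKK1+/+ and 0.0165 in MEKK1-/- cells). Its mean went from 8.83 ± 0.47 to 7.63 ± 0.25 (SD, n = 4) and from 8.71 ± 0.53 to 7.52 ± 0.33, with 14 of 16 arrays above the level without signal. Without 1 of 5 arrays (MEKK1+/+ untreated 3 or treated 4, MEKK1-/- untreated 3 or 4 or treated 2) its adjusted p ran up to 0.0639 in the genotype concerned. The call in MEKK1-/- cells was also lost with the values as deposited or scaled to the same median. NOS2, the inducible nitric oxide synthase, rose by 0.94 in MEKK1+/+ cells (adjusted p = 0.0184; 0.0613 without untreated replicate 2, 0.0774 as deposited and 0.0683 with only the groups compared), beside 0.33 (adjusted p = 0.509) in MEKK1-/- cells; it was above the level on 9 arrays. NOS3, the endothelial synthase, was near that level, above it on 10 arrays, and rose by 0.24 (adjusted p = 0.047) and 0.27 (adjusted p = 0.03). The NOS3 call was lost without any 1 of 14 of the 16 arrays in MEKK1+/+ cells (adjusted p up to 0.135) and of 6 in MEKK1-/- cells (up to 0.0964), and under 7 and 4 of 13 other alternatives. As deposited its difference in MEKK1+/+ cells was -0.04.

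**Figure D4:**
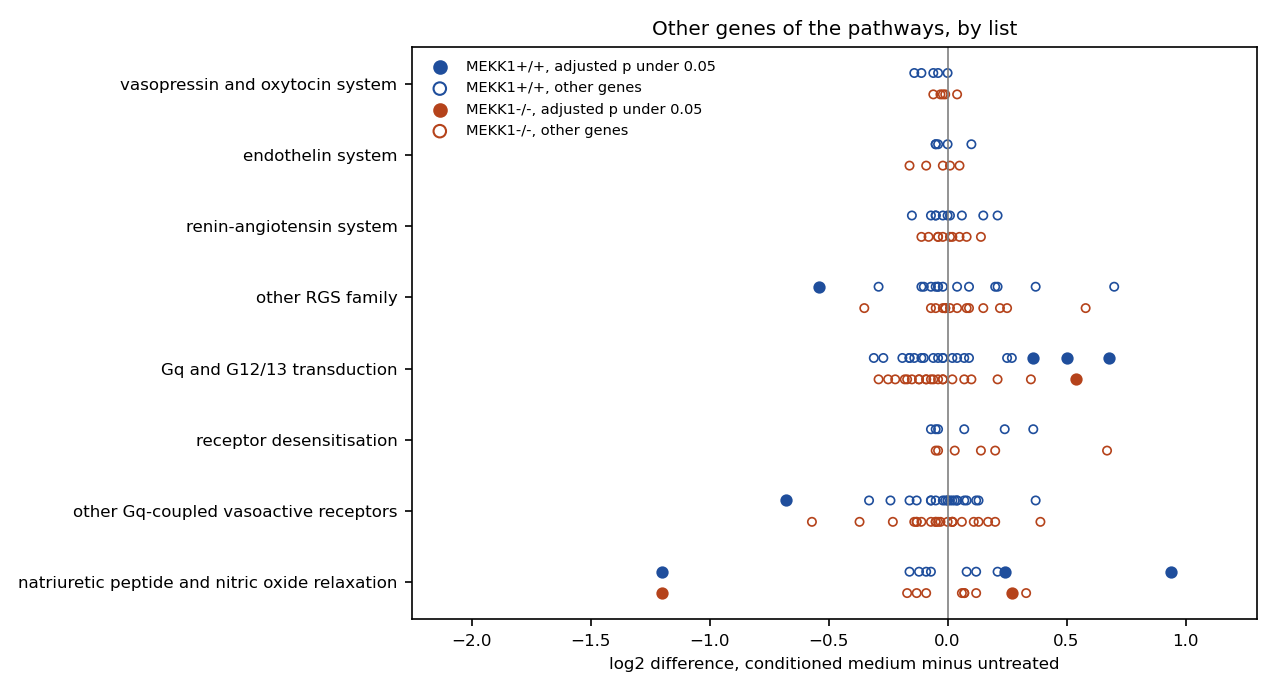
Log2 difference between cells with conditioned medium and untreated cells (horizontal axis) for the other pathway genes of 8 lists; blue is MEKK1+/+, dark orange MEKK1-/-, filled points passed a limma adjusted p of 0.05. Most genes lie near 0, and NPR3 at -1.20 in both genotypes and NOS2 at 0.94 in MEKK1+/+ cells are the farthest of the genes that passed.

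Across the 16 arrays, AVPR1A and EDN1 had a Pearson correlation of 0.763, which was -0.439 once the group means were removed. The MEKK1-/- cultures numbered 1, untreated and treated, had the lowest AVPR1A (9.87 and 8.11) and the highest EDN1 (9.75 and 7.95) of their groups. In untreated MEKK1+/+ cells, replicate 3 was highest and replicate 4 lowest for both genes. AVPR1A and AGTR1A correlated at 0.792, and at 0.527 without the group means. The MEKK1-/- cultures numbered 1 were lowest of their groups in AGTR1A too (8.96 untreated and 8.49 treated). Neither correlation was computed without those cultures. EDN1 and EDNRA were opposed, at -0.811 and -0.399. These values are a description over arrays that share their treatment groups. Among 8093 genes above the level without signal on every array of at least 1 group, the patterns closest to AVPR1A were those of TMEM185B (r = 0.939), PCCB (0.932) and NFIX (0.929), and closest to EDN1 those of RAB11B (0.947), TGFB1I1 (0.946) and MRVI1 (0.943). For EDNRA they were GTPBP2 (0.902), ZFP41 (0.902) and PRPF6 (0.888). For AGTR1A they were TIAM1 (0.925), PCDH7 (0.899) and FIGF (0.897), and for RGS4 they were DUSP1 (0.891), SDPR (0.889) and VCL (0.872). MRVI1 differed by -1.25 and -1.59 with conditioned medium, the nearest in size to EDN1 among these, whereas the genes most like AVPR1A differed by -0.37 to -0.68.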

How the data were processed

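Total RNA of 16 cultures was hybridized to Illumina Mouse 8 arrays. The authors deposited an intensity per gene symbol and array on a linear scale, which a core facility had normalized; the normalization, the background treatment and the way probes were combined are not given in the sources used here, and raw data were not used here. A depth is not defined for arrays, and their number limits the precision. Groups and replicate numbers came from the labels. Log2 intensities were quantile normalized between arrays, and a limma model (version 3.58.1, R 4.3.3; lmFit, then eBayes) was fitted to the 4 groups (12 residual degrees of freedom, Benjamini-Hochberg adjustment over all 18132 genes, threshold 0.05). The fit was tested on simulated data. Single genes were tested by 2-sided exact permutation (SciPy 1.17.1), for the 8 members and MAP3K1 in each of 2 comparisons. Genotypes were compared without and with conditioned medium, treatments within each genotype, and the interaction was fitted; for the members it is given without a test.

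The members and the gene and marker lists were chosen with earlier results of these data known. Named genes were all members, up to 3 genes per pathway list with the largest response among those that passed, the 3 genes most correlated with each member, and of each marker list the highest and those with no signal; other names were chosen after their values were seen. Alternatives tried were to keep the deposited values, to scale arrays to one median, to use z-scores, to apply the methods' test on z-scores, to keep only genes above the median level, to add 16 or set a floor of 64 before the log, to fit only the groups in question, trend and robust eBayes, array weights, a replicate block, a replicate block within genotype and each array left out; leaving out both MEKK1-/- cultures numbered 1 was chosen after seeing the data. Same-numbered untreated and treated arrays, after removal of group means, correlated at 0.505, 0.403, 0.219 and 0.251 in MEKK1-/- cells. All were above 0.1, so numbers were taken as pairs there, as the labels do not say what a number stands for. In MEKK1+/+ cells same-numbered arrays correlated at -0.038, 0.485, 0.12 and 0.576 and were not taken as pairs. By closest match the picture differed. In MEKK1+/+ cells numbers 2, 3 and 4 were closest to their own number, while 1 was closest to 3. In MEKK1-/- cells numbers 1 and 2 were closest to their own, while 3 and 4 matched each other. The summed macrophage intensity kept its order over the numbers in both genotypes. In MEKK1+/+ cells, numbers 1 to 4 had 29554, 6679, 22554 and 16707 untreated, and 23021, 6338, 22353 and 16936 treated. In MEKK1-/- cells they had 7686, 19508, 2769 and 3265 untreated, and 8713, 16585, 3260 and 3854 treated. Numbers may thus be pairs in both genotypes, which the labels do not settle. Gene symbols are those of the table, and some are old (EMR1 is ADGRE1). Results of 1 gene list and 1 marker list are not reported here.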

Additional observations from a re-analysis of the deposited data

Results flagged for a closer look

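Of 32 sets of 4 cultures (8 genes, 4 groups), 1 held a culture far from the other 3, and chance gives about 1 in 20. RGS2 in treated MEKK1-/- cells was 6.70 in replicate 2, with a gap to the next culture of 0.872 of the group's range, above the 95% critical value for 4 samples. RGS2 was below the level without signal on all 16 arrays.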

How the results depend on the processing

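The members lower with conditioned medium in both genotypes numbered 5, with RGS2, which had no signal, among them, and between 4 and 6 under the alternatives run. AVPR1A and EDN1 stayed below 0 and EDNRA above 0 with each array left out and under each scaling. With the values as deposited, in which the median gene shifts by -0.284, differences in MEKK1+/+ cells moved to -2.38 (AVPR1A), -1.89 (EDN1), 0.27 (EDNRA), -0.95 (AGTR1A) and -0.83 (RGS4). The counts of members that passed between genotypes stayed at 0 under all alternatives (0 to 0 with each array left out), except 1 for the methods' test on z-scores in untreated cells.

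Of the differences between genotypes, the following changed sign. In untreated cells EDNRA became -0.067 as deposited, -0.087 with scaling to the same median and ran from -0.028 to 0.293 with an array left out. With conditioned medium, EDN1 became 0.27 as deposited and ran from -0.20 to 0.11 with an array left out, and RGS4 became -0.032 with scaling to the same median, ran from -0.016 to 0.385 with an array left out and was -0.017 without both MEKK1-/- cultures numbered 1. The difference of the responses became 0.19 (AVPR1A), 0.15 (EDN1), 0.15 (AGTR1A), 0.24 (RGS2), 0.04 (RGS4) and 0.22 (RGS5) as deposited, 0.019 for RGS5 with array weights and -0.013 for EDNRB without both MEKK1-/- cultures numbered 1. With an array left out it ran from -0.056 to 0.153 (EDNRB), -0.086 to 0.046 (RGS2) and -0.075 to 0.023 (RGS5). Among pathway genes, PLCB3 (-0.065) and NOS3 (-0.038) changed sign in MEKK1+/+ cells as deposited.

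The pathway counts moved most. In MEKK1+/+ cells, 5 higher became 0 as deposited, 3 with scaling to the same median or trend and robust eBayes, 1 with only the groups compared and 2 to 5 with an array left out. The 3 lower became 5 with the methods' test on z-scores and 0 to 4 with an array left out. In MEKK1-/- cells, 2 higher became 0 as deposited or scaled to the same median, 8 with the methods' test on z-scores, 4 with only the groups compared, array weights or the replicate block within genotype, 1 without both MEKK1-/- cultures numbered 1 and 1 to 4 with an array left out. The 1 lower became 0 as deposited or scaled, 2 with z-scores, only genes above the median level, trend and robust eBayes, array weights or without both MEKK1-/- cultures numbered 1, 6 with the methods' test on z-scores, 3 with the replicate block within genotype and 0 to 2 with an array left out. The cause was not tested. The replicate block across all groups left the counts at 5 and 3 in MEKK1+/+ cells and 2 higher in MEKK1-/- cells, and the members that passed between genotypes at 0. Signal over background limits EDNRB, RGS2 and RGS5, whose values cannot show a difference, and EDN1 with conditioned medium.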
